A study of Caenorhabditis elegans with 6 samples.

Results

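The Hedgehog-related genes of Caenorhabditis elegans were followed in mir-243 mutant and wild-type worms. The members are all genes named wrt (warthog), grd (groundhog) or grl (ground-like) with a number, together with hog-1 and qua-1 (quahog). They were picked out by gene name in the annotation of the array probes, with earlier results of these data known. The reference annotation held 61 such genes, of which 2 are pseudogenes with no matched probe (grl-32 and grd-17). The other 59 genes had 60 probes among the 20401 gene probes of the array, and 57 of these probes passed the filters and were tested, among 16272 tested probes in all.

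The mutant worms carried n4759, an allele of the microRNA gene mir-243, and were compared with wild-type worms of the Bristol strain N2. Both genotypes were young adults grown at 20C and whole worms were extracted, so each measurement is a sum over all tissues. Total RNA was copied into cDNA, the labelled cDNA of both genotypes was hybridised together on 2-colour arrays, and 3 biological replicates were each measured on 2 arrays with the dyes exchanged (6 arrays, n = 3). The question behind the arrays was which mRNAs depend on miR-243, whether or not they are its own targets. The mutant is represented by a single allele, no rescued strain was on the arrays, and no array probe was named mir-243, so the genotype was not checked here. A lower number of cells of one type and less RNA per cell cannot be told apart in such samples.

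C. elegans has no clear orthologue of Hedgehog, the secreted signal that patterns many animal tissues. It carries instead several families of secreted proteins, some of which share a C-terminal Hog domain with Hedgehog. The others have an N-terminal domain that is found together with it or resembles one that is. Where a Hog domain is present, it cleaves the protein and releases the N-terminal portion. The N-terminal domain is called Wart in the WRT proteins and Ground or Ground-like in the GRD and GRL proteins. Of the 59 genes with a probe, 10 encode a Hog domain, and no grl gene is among them. Many family members are transcribed in the epidermis and other cuticle-making epithelia, and several are needed for molting. Relatives of the Hedgehog receptor Patched and of the exporter Dispatched have also expanded in this lineage.

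Most of the Hedgehog-related genes were higher in the mutant. Of the 57 tested probes, 39 were called higher, which means an adjusted p under 0.05 in limma and a change of at least 2-fold. Over all tested probes 9.1% were called higher. None of the 57 was called lower (limma; 1 was lower at an unadjusted p under 0.05), against 7.17% of all tested probes. A further 15 were higher with an adjusted p under 0.05 but less than 2-fold, 1 was lower in the same way (grd-3) and 2 did not pass the test (grd-11 and grl-8). By adjusted p alone, with no fold limit, 54 of the 57 were higher, against 42.2% of all tested probes, and 1 was lower, against 41.3%. Since 83.6% of all tested probes passed by adjusted p alone, the fold limit did most of the selecting.

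The median log2 ratio of mutant over wild type was 1.68 over the 57 probes, ± 0.113 (SD of the 3 replicate medians), against -0.01 over all tested probes. The replicate medians were 1.63, 1.67 and 1.84. Of the 57 probes, 23 were at least 4-fold higher, a size reached by 2.32% of all tested probes, and 8 were at least 8-fold higher, against 0.584%. Each of the 39 called probes was at least 2-fold higher in each replicate, and had the same sign on all 6 arrays. The calls were made from these same replicates, so this describes the called probes and is no separate support.

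Normalised signals are given below in array units for replicates 1, 2 and 3, and they serve to compare genotypes for one probe, not one gene with another. All 3 mutant signals lay above all 3 wild-type signals for 51 of the 57 probes, against 37% of all tested probes. They lay below for 1 probe, against 34%, and the genotypes overlapped for 5. Adjusted p-values of the 39 called probes were between 1.34e-15 and 3.04e-10 (limma, Benjamini-Hochberg over all tested probes). An exact sign-flip test over 3 replicates cannot give a p under 0.25, so the p-values rest on the spread that limma shares across probes.

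**Figure D1:**
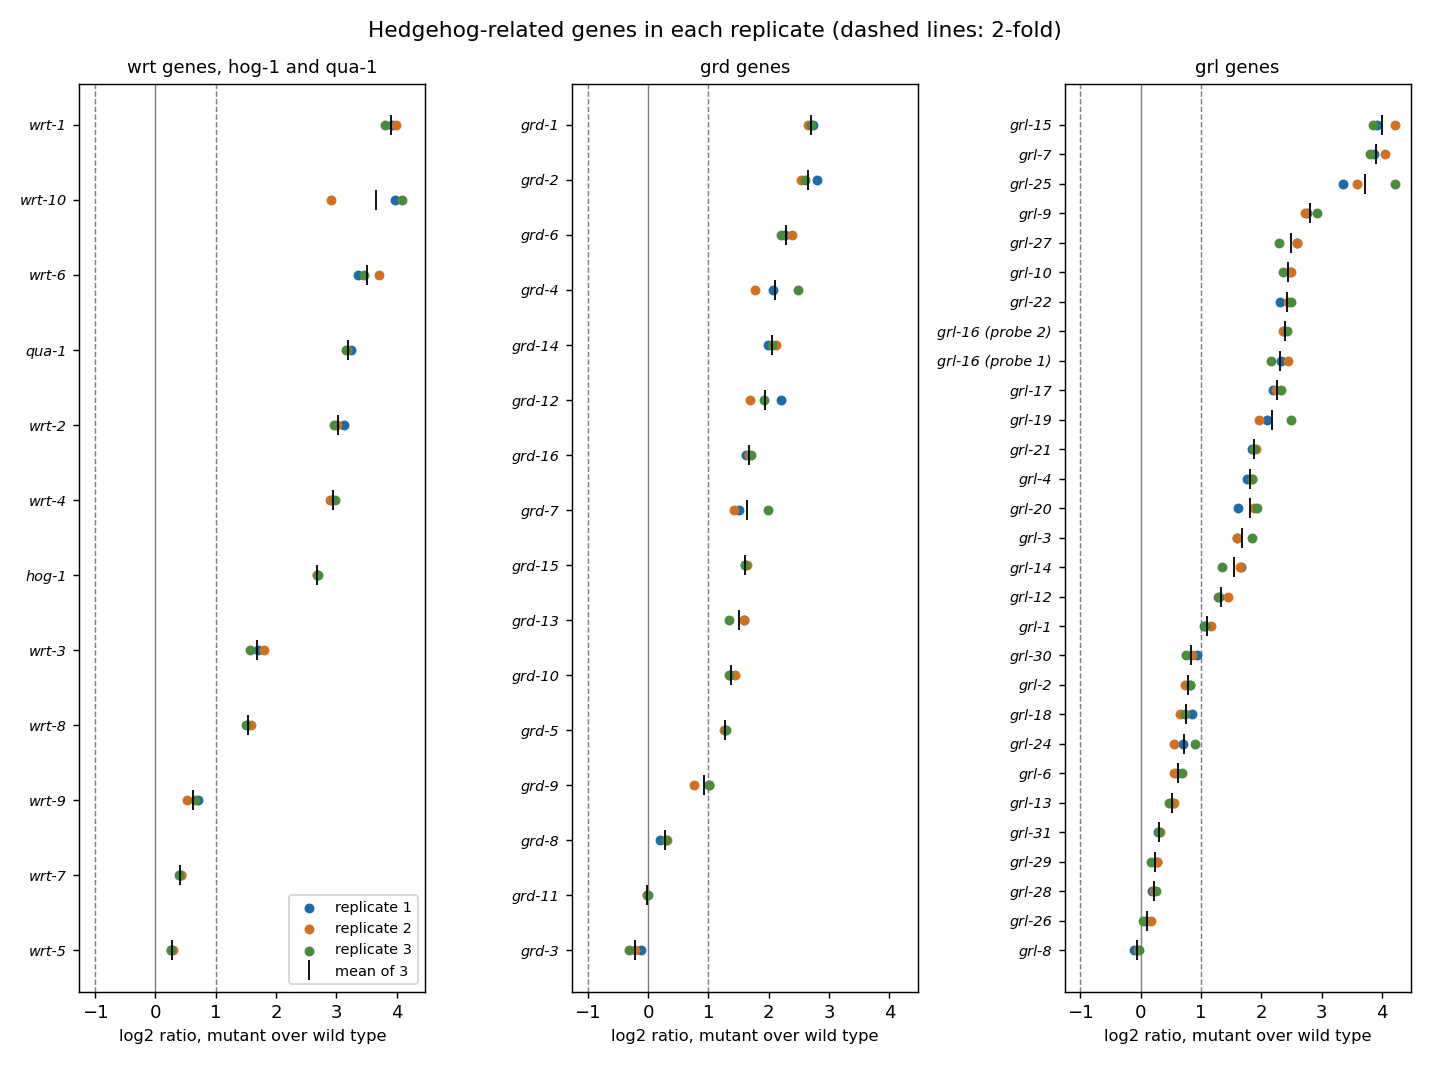
Log2 ratio of mutant over wild type for each tested probe of the wrt genes with hog-1 and qua-1 (left), the grd genes (middle) and the grl genes (right), ordered by the mean. Points are the 3 biological replicates, each the mean of both dye orientations, the short black line is their mean, and the dashed lines mark 2-fold. Most probes sit right of the 2-fold line in all replicates, and wrt-10 in replicate 2 (2.91) stands apart from its other replicates (3.97 and 4.09).

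The 10 wrt genes had a median log2 ratio of 2.31 (SD 0.0414 between replicate medians), and 7 of them were called higher. The family divided into 5 genes that were at least 7.65-fold higher, 2 genes with changes near 3-fold and 3 genes below 2-fold.

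For wrt-1, which encodes a Wart domain and a Hog domain, the signals were 8130, 9030 and 8630 in mutant worms, against 535, 568 and 620 in wild-type worms. The log2 ratio was 3.91 ± 0.0982 (SD, n = 3), a 15-fold difference (limma adjusted p 1.34e-15), and 0.0983% of all tested probes had a ratio as high. The genotypes were far apart and the replicates of each genotype lay close together.

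The probe of wrt-10, the gene next to wrt-1 on chromosome II, read 8660, 1500 and 11300 in mutant worms, against 553, 200 and 661 in wild-type worms. Its log2 ratio was 3.66 ± 0.653 (adjusted p 6.68e-11). The mutant signals were above all wild-type signals, but replicate 2 was low in both genotypes. That replicate rested on 1 dim spot on the array with the mutant in Cy5, since the brighter spot of the probe was marked as an outlier by the scanner software. With outlier-marked spots kept, the log2 ratio was 3.89.

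For wrt-6, a gene with a Hog domain, signals were 5880, 7700 and 8750 in mutant worms, against 574, 593 and 796 in wild-type worms, a log2 ratio of 3.51 ± 0.176. For wrt-2, which has a Wart domain only, they were 4680, 4180 and 4680 in mutant worms, against 534, 521 and 602 in wild-type worms, and the log2 ratio was 3.03 ± 0.0893. For wrt-4, another gene with a Hog domain, they were 4310, 4740 and 4490 in mutant worms, against 568, 636 and 568 in wild-type worms, with a log2 ratio of 2.94 ± 0.0436. In these 3 genes the lowest mutant replicate was several times the highest wild-type replicate.

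Smaller increases were found for wrt-3 and wrt-8. The wrt-3 signals were 979, 1090 and 892 in mutant worms, against 301, 313 and 300 in wild-type worms (log2 ratio 1.69 ± 0.114). The wrt-8 signals were 1230, 1130 and 1280 in mutant worms, against 426, 375 and 448 in wild-type worms (log2 ratio 1.54 ± 0.0413). Neither gene had overlapping genotypes, and the wrt-8 protein carries a Hog domain whereas that of wrt-3 does not.

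The remaining 3 wrt genes passed the adjusted p but not 2-fold. The wrt-9 signals were 208, 191 and 199 in mutant worms, against 128, 133 and 126 in wild-type worms, a log2 ratio of 0.63 ± 0.0949 (adjusted p 2.66e-08). For wrt-5, which is required for embryonic development, they were 1910, 1820 and 1920 in mutant worms, against 1600, 1490 and 1600 in wild-type worms, a log2 ratio of 0.27 ± 0.0143 (adjusted p 4.68e-05). Thus wrt-5 was well measured in both genotypes, without overlap, and differed by only 1.20-fold.

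The wrt-7 probe was well above background on 4 of 6 arrays in mutant worms and on 0 of 6 in wild-type worms. The size of its ratio is therefore uncertain. With this processing it was 1.33-fold higher in the mutant (limma adjusted p 6.41e-07). The signals were 87.8, 96.8 and 95.3 in mutant worms, against 65.4, 72.4 and 72.5 in wild-type worms. Its log2 ratio was 0.41 here, 0.26 with no background correction and 2.03 with the scanner's processed signals.

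The 2 single-gene relatives were both called higher. For hog-1, whose product has a Hog domain without a Wart or Ground domain, signals were 3270, 3750 and 2910 in mutant worms, against 510, 586 and 451 in wild-type worms. The 3 replicate ratios were nearly identical (2.68, 2.68 and 2.69), giving a log2 ratio of 2.68 ± 0.00851. For qua-1, a Hog-domain gene that is needed for molting, signals were 3230, 3310 and 3180 in mutant worms, against 342, 368 and 358 in wild-type worms. Its log2 ratio was 3.19 ± 0.0489, or 9.12-fold (adjusted p 2.21e-15), and the genotypes did not overlap.

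**Figure D2:**
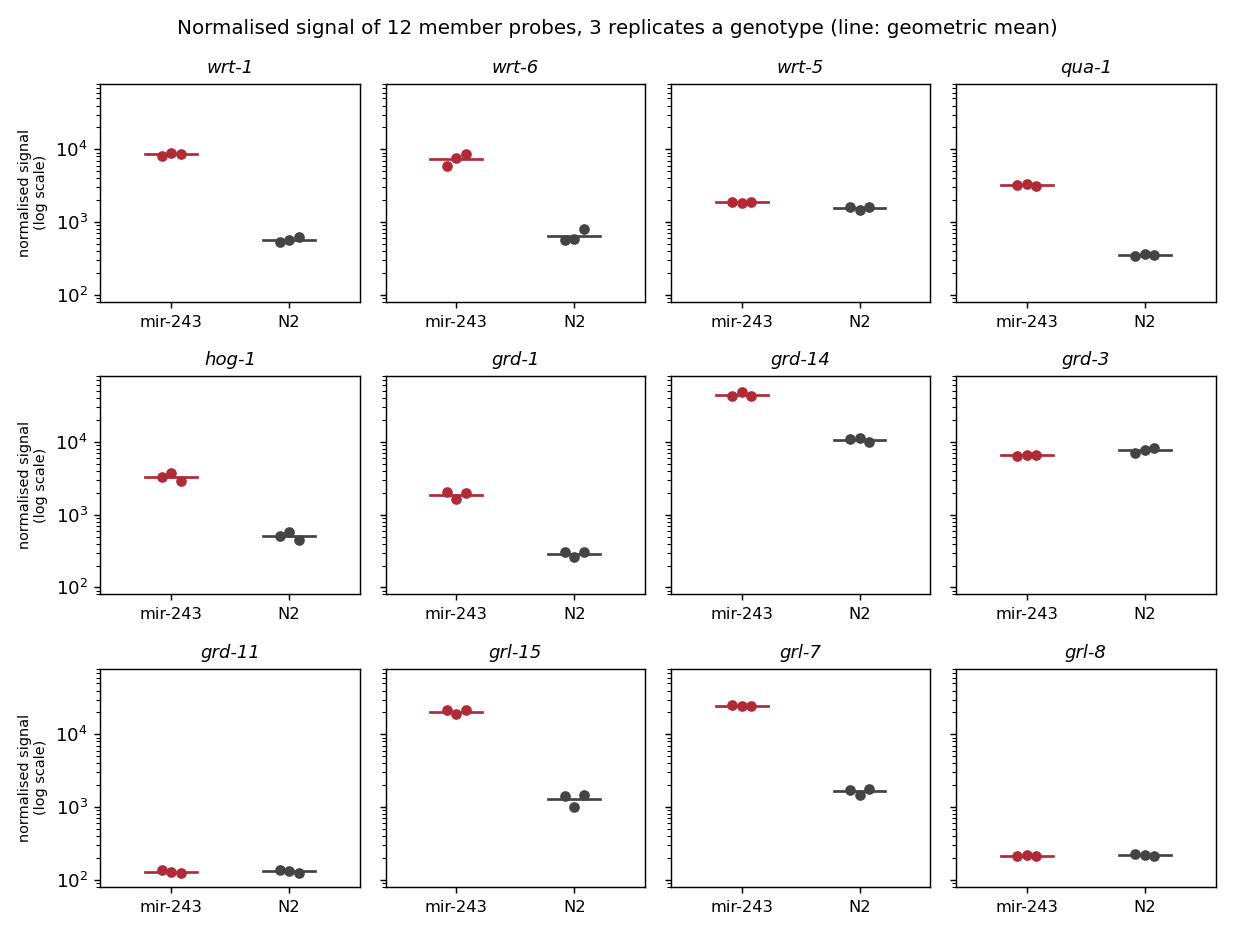
Normalised signal (log scale, array units) of 12 probes in mir-243 mutant worms (red, left) and N2 wild-type worms (grey, right), with points for replicates 1 to 3 and a line at their geometric mean. Genotypes are to be compared within a panel. The mutant points lie far above the wild-type points for wrt-1, wrt-6, qua-1, hog-1, grd-1, grd-14, grl-15 and grl-7, slightly above for wrt-5, slightly below for grd-3, and overlap for grd-11 and grl-8.

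Of the 16 grd genes, 12 were called higher and none lower. Their median log2 ratio was 1.63 (SD 0.0304 between replicate medians), and none reached 8-fold with this processing, although grd-12, grd-2 and grd-1 did with the scanner's processed signals (log2 ratios of 3.52, 3.08 and 3.04).

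The 2 highest grd genes here both encode a Hog domain, whereas with the processed signals or the deposited ratios grd-12, which has none, was the highest (3.52). The grd-1 signals were 2020, 1620 and 2010 in mutant worms, against 303, 258 and 308 in wild-type worms (log2 ratio 2.70 ± 0.0436). The grd-2 signals were 1760, 1420 and 1580 in mutant worms, against 254, 244 and 261 in wild-type worms (log2 ratio 2.64 ± 0.135). Both were more than 6-fold higher in the mutant, with no overlap between genotypes.

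The next 3 encode a Ground domain and no Hog domain. For grd-6 the signals were 5520, 5270 and 4850 in mutant worms, against 1140, 1010 and 1060 in wild-type worms (log2 ratio 2.28 ± 0.0912). For grd-4 they were 758, 592 and 1040 in mutant worms, against 181, 172 and 187 in wild-type worms (log2 ratio 2.11 ± 0.352). For grd-14, the neighbour of grd-4 on chromosome X, they were 43300, 49100 and 42000 in mutant worms, against 10900, 11200 and 10100 in wild-type worms (log2 ratio 2.06 ± 0.0708). None of these overlapped, and the ratio of grd-4 varied most between replicates among the called grd genes, from 1.78 in replicate 2 to 2.48 in replicate 3.

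At the lower end of the called grd genes, changes were between 2.42-fold and 3.12-fold. For grd-5 the signals were 9160, 8720 and 9790 in mutant worms, against 3790, 3660 and 3980 in wild-type worms (log2 ratio 1.27 ± 0.0224), and with median centring grd-5 fell below 2-fold (0.99). For grd-10 they were 6930, 8220 and 7380 in mutant worms, against 2710, 3030 and 2930 in wild-type worms (log2 ratio 1.38 ± 0.0562). For grd-13 they were 4110, 3280 and 3470 in mutant worms, against 1360, 1090 and 1370 in wild-type worms (log2 ratio 1.51 ± 0.144). In each of these the mutant replicates were all above the wild-type replicates.

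The same separation held for the others named by rank. For grd-15 the signals were 926, 927 and 814 in mutant worms, against 304, 299 and 268 in wild-type worms (log2 ratio 1.61 ± 0.0165). For grd-7 they were 367, 357 and 457 in mutant worms, against 129, 133 and 115 in wild-type worms (log2 ratio 1.64 ± 0.303). The 2 remaining called genes, grd-12 and grd-16, had log2 ratios of 1.94 and 1.67. Among called grd genes, the fold moved by over 1.5 times with the processed signals for grd-12 (log2 ratio 3.52), grd-7 (2.65) and grd-4 (2.71).

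The 4 grd genes that were not called are grd-3, grd-8, grd-9 and grd-11. For grd-3 the signals were 6460, 6550 and 6650 in mutant worms, against 7010, 7620 and 8280 in wild-type worms. Its log2 ratio was -0.22 ± 0.0997 (adjusted p 8.79e-04), the only member probe that was lower with an adjusted p under 0.05, and the genotypes did not overlap. For grd-11, a gene with a Hog domain, the signals were 135, 130 and 123 in mutant worms, against 137, 132 and 123 in wild-type worms, with a log2 ratio of -0.01 (adjusted p 0.762). This probe cleared the background on all 6 arrays for mutant and wild type, and the sign of its ratio changed with the processing. The genes grd-8 and grd-9 had log2 ratios of 0.27 and 0.92. The wild-type signal of grd-9 was well above background on 5 of 6 arrays, and grd-9 was called higher with the processed signals (2.17), the deposited ratios (2.17), median centring (1.04) or without replicate 2 (1.01).

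The largest family comprised 31 grl genes with 32 probes, since grl-16 had 2. Of 29 tested grl probes 18 were called higher and none lower, with a median log2 ratio of 1.68 (SD 0.124 between replicate medians).

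Among the grl genes, 3 had ratios above 8-fold, of which grl-15 had the highest ratio of all members. The grl-15 signals were 21500, 18800 and 21600 in mutant worms, against 1420, 1020 and 1490 in wild-type worms, a log2 ratio of 4.0 ± 0.189, or 16-fold (adjusted p 4.51e-15). For grl-7, whose product is found in the temporary matrix that precedes each new cuticle, the signals were 25300, 24300 and 24800 in mutant worms, against 1720, 1470 and 1780 in wild-type worms. Its log2 ratio was 3.91 ± 0.128. These 2 genes were among the 0.1% of tested probes with the highest ratios, at 0.0615% and 0.0922%.

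The grl-25 signals were 7890, 10500 and 11700 in mutant worms, against 768, 869 and 632 in wild-type worms, a log2 ratio of 3.72 ± 0.441. Here the replicates varied more, with log2 ratios of 3.36, 3.59 and 4.21, although the genotypes were widely separated. For grl-9 the signals were 4080, 4340 and 4810 in mutant worms, against 602, 654 and 631 in wild-type worms (log2 ratio 2.81 ± 0.108). For grl-27 they were 14200, 15600 and 12100 in mutant worms, against 2340, 2590 and 2480 in wild-type worms (log2 ratio 2.49 ± 0.178). Neither of these overlapped between genotypes.

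The 5 lowest called grl genes changed between 2.13-fold and 3.51-fold. For grl-1 the signals were 310, 433 and 391 in mutant worms, against 149, 194 and 187 in wild-type worms (log2 ratio 1.09 ± 0.059). For grl-12 they were 574, 530 and 601 in mutant worms, against 233, 194 and 248 in wild-type worms (log2 ratio 1.34 ± 0.0926). For grl-14 they were 1090, 1010 and 1130 in mutant worms, against 345, 323 and 442 in wild-type worms (log2 ratio 1.55 ± 0.172). Every mutant replicate of these genes was above every wild-type replicate, although grl-1 fell below 2-fold with 3 other settings.

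For grl-3 the signals were 695, 763 and 734 in mutant worms, against 230, 251 and 204 in wild-type worms (log2 ratio 1.68 ± 0.143). For grl-20 they were 2060, 2490 and 2940 in mutant worms, against 675, 675 and 767 in wild-type worms (log2 ratio 1.81 ± 0.175). Between these and the top 5 lay 8 called probes, namely those of grl-4, grl-10, grl-16, grl-17, grl-19, grl-21 and grl-22, with log2 ratios between 1.82 and 2.44. The 2 probes of grl-16 gave 2.39 and 2.31, a difference of less than the replicate SD of the second (0.141).

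Of the 11 tested grl probes that were not called, 10 were higher with an adjusted p under 0.05. Their log2 ratios were between 0.10 (grl-26) and 0.84 (grl-30), and the genotypes overlapped for grl-26 and grl-31. The exception was grl-8, with signals of 210, 217 and 211 in mutant worms, against 226, 223 and 214 in wild-type worms, and a log2 ratio of -0.05 ± 0.0456 (adjusted p 0.260). The genotypes overlapped, and the sign of this ratio changed with the processing. Among the uncalled genes are grl-2, which is transcribed in the excretory duct and pore cells, and grl-18, which is transcribed in socket glia. The grl-2 signals were 157, 148 and 151 in mutant worms, against 89.5, 89.1 and 85.1 in wild-type worms (log2 ratio 0.79). Those of grl-18 were 179, 160 and 181 in mutant worms, against 99.4, 102 and 108 in wild-type worms (log2 ratio 0.75). Neither overlapped, but the wild-type signal was well above background on only 1 of 6 arrays for grl-2 and 3 of 6 for grl-18.

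No member probe was saturated, but dim probes limited the small ratios. All 39 called probes cleared the background on every array for mutant and wild type, as did 49 of the 57 tested. The other 8 were below that level in wild type on at least 1 array, and none of them was called. They were wrt-7, grd-9, grl-2, grl-13, grl-18, grl-24, grl-28 and grl-29. With the signals as processed by the scanner software, 6 of these 8 were called higher, and with the deposited log2 ratios also 6. With no background correction 0 of the 8 were called. Of the 39 called probes, 5 moved by over 1.5 times in fold with the processed signals, namely those of grd-12, grd-7, grd-4, grl-19 (log2 ratio 2.18 here and 2.99 there) and wrt-10 (4.25 there). For wrt-7 the log2 ratio was 0.41 with the normexp correction and 2.03 with the scanner's processed signals. The ratios of wrt-9, grl-6 and grl-30, which cleared the background on every array, also passed 2-fold with the processed signals (1.20, 1.36 and 1.56). In contrast, grd-3, grd-11, grl-8, grl-26, grl-31, grd-8 and wrt-5 were below 2-fold with each of the 4 ways of processing.

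**Figure D3:**
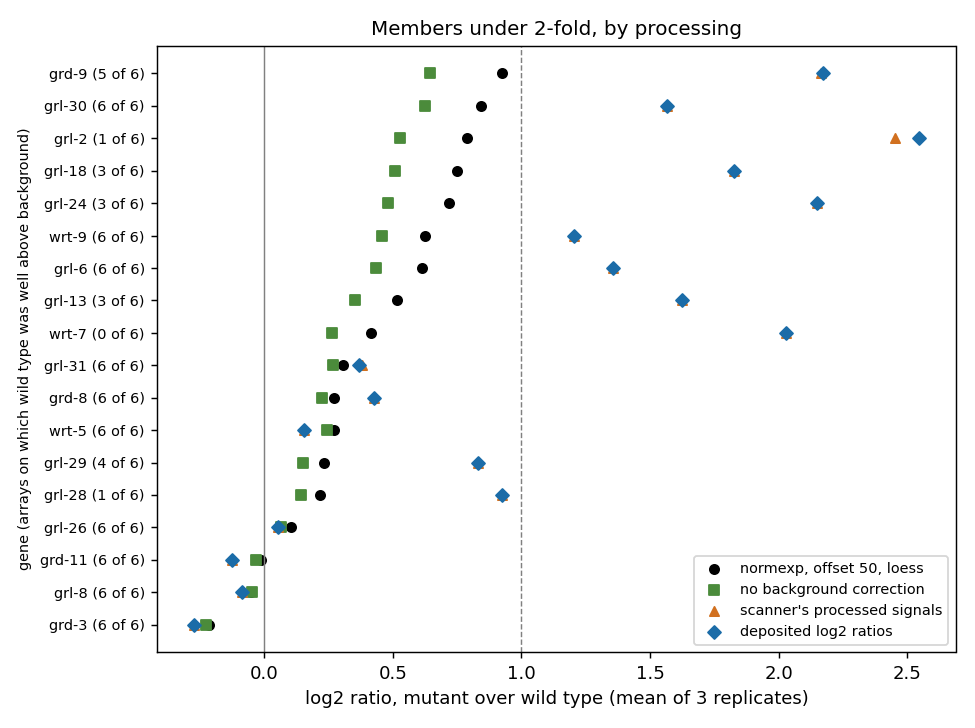
Mean log2 ratio of mutant over wild type (3 replicates) for the 18 member probes below 2-fold, under 4 ways of processing the arrays, shown as 4 marker types. The number after each gene is the count of arrays on which its wild-type signal was well above background, and the dashed line marks 2-fold. Dim probes such as wrt-7, grl-2 and grl-24 move past 2-fold with the scanner's processed signals and the deposited ratios, whereas wrt-5, grd-3, grd-11 and grl-8 stay near 0.

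The filters left 3 grl probes untested. The grl-5 probe lacked a value in replicate 1, and its signals in replicates 2 and 3 were 15900 and 16100 in mutant worms, against 1180 and 1120 in wild-type worms. The grl-23 probe had outlier marks on most of its spots. With outlier-marked spots kept, grl-5 and grl-23 had log2 ratios of 3.66 and 2.70 and both were called higher. The grl-11 signal did not clear the background on a single array for mutant or wild type, so no ratio is given.

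Members that lie next to each other on a chromosome did not always change alike. The neighbours wrt-1 and wrt-10 had log2 ratios of 3.91 and 3.66, and grd-14 and grd-4, which also have no protein-coding gene between them, had 2.06 and 2.11. By contrast, grl-9 had 2.81 and the adjacent grl-8 had -0.05. On chromosome IV, grd-3 (-0.22) lies between grd-13 (1.51) and grd-10 (1.38). On chromosome V, grl-29, grl-30 and grl-31 are adjacent and had 0.23, 0.84 and 0.31, while grl-27, separated from grl-31 by 5 protein-coding genes, had 2.49. None of these differences between neighbours was tested.

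Members with a Hog domain were compared with those without, a division made after the values had been seen, and so given without a test. Of 10 genes with a Hog domain 8 were called higher, with a median log2 ratio of 2.69. Of 47 tested probes without one, 31 were called higher, with a median of 1.64. The Hog-domain genes that were not called were wrt-7 and grd-11, and the 2 highest ratios among members without the domain were those of grl-15 and grl-7. Called members were found on every chromosome with tested members, with 3 of 3 on chromosomes I, II and III, 8 of 12 on chromosome IV, 14 of 26 on chromosome V and 8 of 10 on chromosome X.

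Genes for proteins related to the Hedgehog receptor and its partners changed less uniformly. The list held 32 genes for Patched and Patched-related proteins, the Dispatched relatives che-14 and ptd-2, the sterol transporters ncr-1 and ncr-2, and tra-1, the Gli-family regulator of sex determination. Of 32 tested probes 13 were called higher and none lower, with a median log2 ratio of 0.66 (SD 0.0488 between replicate medians). By adjusted p alone, 10 more were higher and 5 lower, and 4 did not pass. Of all tested probes, 9.1% were called higher and 7.17% lower. By adjusted p alone, called ones included, 42.2% of all tested probes were higher and 41.3% lower. The 3 highest were ptr-4 (3.31), which acts in the apical matrix of the epidermis, ptr-16 (2.42) and ptc-3 (2.24), an essential Patched.

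For ptc-3 the signals were 4860, 5970 and 4680 in mutant worms, against 965, 1270 and 1040 in wild-type worms. For che-14, which acts in apical secretion by epithelial cells, they were 1210, 1240 and 1010 in mutant worms, against 246, 289 and 254 in wild-type worms (log2 ratio 2.13). For ptc-1, a Patched that acts in germline cytokinesis, they were 163, 163 and 155 in mutant worms, against 211, 242 and 225 in wild-type worms. The log2 ratio of ptc-1 was -0.50 ± 0.105 (adjusted p 4.14e-07), so it went in the other direction from ptc-3, with no overlap in either gene. The 2 tra-1 probes had log2 ratios of 0.22 and 0.03.

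Genes of the precuticle matrix and of molting, the process in which the larval cuticle is shed, were higher nearly throughout, with 18 of 19 tested probes called higher and a median log2 ratio of 2.81. The highest were lpr-5 (4.21), which encodes a lipocalin, noah-1 (3.98), a matrix protein, and mlt-11 (3.92), a putative protease inhibitor. The lowest was nekl-2 (0.49), a kinase gene that was not called. Among transcription regulators and timers of the molting cycle and epidermis 3 of 11 tested probes were called higher (lin-29 at 1.49, myrf-1 at 1.36 and bed-3 at 1.03). In this list 1 probe was called lower (lin-41 at -1.73), and the median was 0.42. Over all tested probes 9.1% were called higher and 7.17% lower. By adjusted p alone, 4 more of the list were higher and 1 lower, and 2 did not pass. The shares over all tested probes, called ones included, were 42.2% higher and 41.3% lower. The probes of nhr-23, a nuclear receptor that drives molting, had log2 ratios of 0.05 and -0.19.

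**Figure D4:**
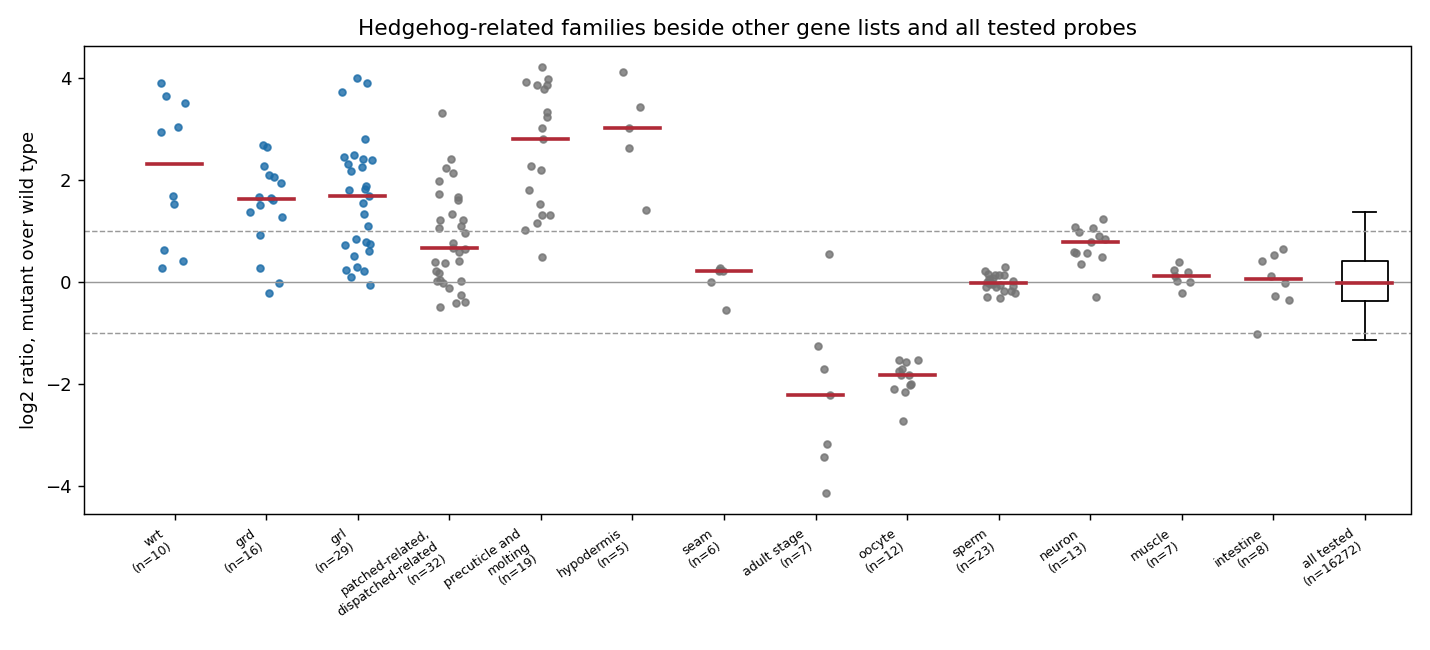
Log2 ratio of mutant over wild type for each tested probe of the wrt, grd and grl families (blue) and of 10 other gene lists (grey), with a red line at each median, beside a box for all 16272 tested probes (box from the 25th to the 75th percentile, whiskers from the 5th to the 95th). Dashed lines mark 2-fold in either direction. The family medians (2.31, 1.63 and 1.68) lie above that of all probes (-0.01), the hypodermis and precuticle lists lie higher still, and the medians of the adult stage and oocyte lists lie below 0.

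Some lists of stage and tissue markers shifted in the mutant and others did not. For comparison, 9.1% of all tested probes were called higher and 7.17% lower. By adjusted p alone, called ones included, 42.2% of all tested probes were higher and 41.3% lower. Of 7 tested probes for yolk proteins and adult collagens 6 were called lower, among them vit-1 (-4.13), vit-5 (-3.43) and vit-4 (-3.17), with a median log2 ratio of -2.22. Their summed signal was 64901 to 66953 in mutant worms, against 159903 to 183133 in wild-type worms, and each probe was above background on all arrays except one for vit-6, which was so on 4 of 6 in mutant worms. The adult collagen col-19 was lower (-1.26), while col-7 had 0.55. All 12 tested oocyte and eggshell probes were called lower (median -1.82, including perm-2 at -2.72 and rme-2, the yolk receptor, at -2.15). Their summed signal was 79817 to 84602 in mutant worms, against 344470 to 378860 in wild-type worms. None of 23 sperm probes was called (median -0.01; 6 higher and 5 lower at an adjusted p under 0.05).

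The 5 tested hypodermis probes were all for collagen genes (dpy-7, rol-6, dpy-13, sqt-3 and col-10). The listed genes bus-8 and col-12 had no matched probe, so the list covers collagen transcripts only. All 5 probes were called higher, with a median log2 ratio of 3.01. Their summed signal was 165760 to 181340 in mutant worms, against 18890 to 19342 in wild-type worms. The highest was dpy-7 (4.12). The counts of this and the following lists stand beside 9.1% of all tested probes called higher and 7.17% called lower. By adjusted p alone, called ones included, the shares were 42.2% higher and 41.3% lower. For seam cells, 0 of 6 probes were called (median 0.23, with 4 higher and 1 lower at an adjusted p under 0.05). These probes were dim, with a summed signal of 926 to 946 in mutant worms, against 905 to 921 in wild-type worms. Wild-type signals were well above background on 0 of 6 arrays for nhr-73 and 3 of 6 for bro-1, so the size of such ratios is uncertain. None of 4 glia probes (median 0.23, with 2 higher and 1 lower at an adjusted p under 0.05) and 7 muscle probes (median 0.12, with 4 higher and 1 lower) was called, and in the intestine only ges-1 was (-1.01, lower; median of 8 probes 0.05, with 4 higher and 2 lower by adjusted p alone). The glia list had 7 probes, of which 4 were tested and the others were too dim. Of the tested ones, delm-2 was well above background in wild type on only 1 of 6 arrays. Of 13 neuron probes 3 were called higher (median 0.79), with 9 more higher and 1 lower by adjusted p alone. Of 6 excretory system probes 3 were called higher (lpr-1 at 3.52, let-4 at 2.56 and exc-5 at 1.02). By adjusted p alone 1 more was higher (aqp-8 at 0.70) and 1 lower (clh-3 at -0.43), and 1 did not pass (lin-48 at -0.0003). The median was 0.86. Both samples were labelled young adult, and the part of developmental stage or tissue share in the higher signals of the Hedgehog-related genes was not tested.

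The arrays agreed closely. Ratios of all tested probes correlated across probes with r between 0.987 and 0.990 between replicates, and between 0.956 and 0.961 between dye orientations. The median of the member probes was between 1.64 and 1.77 on the 6 arrays. Replicates 1 and 2 were on one slide and replicate 3 on another. The member median was 1.65 on the first slide and 1.84 on the second, 57 of 57 probes had the same sign on both, and 39 and 40 were at least 2-fold higher. Probes of related genes can bind each other's transcripts, and the extent of this was not tested.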

How the data were processed

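Per the labels and the file headers, Agilent 2-colour C. elegans arrays held both genotypes on every array, with the dyes exchanged between 2 arrays of each of 3 biological replicates. The deposited scanner files give the intensity of each spot in Cy3 and Cy5 and a log10 ratio of both channels, and the deposited value tables give log2 ratios. On 88.0 to 90.8% of probes these lay within 0.001 of the scanner ratio, with signs not turned for exchanged dyes. The deposited signals came from Agilent Feature Extraction, version 10.5.1.1 in the file headers and 8.5.1.1 in the submitters' processing notes. The other deposited columns, such as flags of outliers and of signals above background, were used as flags. The genome build behind the probes is not given in the sources used here.

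Median spot signals minus local background were corrected with normexp (offset 50, limma 3.58.1 in R 4.3.3) and normalised by loess within each array. Spots marked as outliers in either channel were left out, spots of a probe were averaged, ratios were turned to mutant over wild type, and both dye orientations of a replicate were averaged. Signals per genotype came from loess and quantile normalisation of average intensities, with the offset included. A probe was tested if it was well above background on at least 4 of 6 arrays in 1 genotype with values in all 3 replicates. The signal filter passed 16812 probes and 540 of these lacked a replicate. The test was limma's lmFit and eBayes against 0, two-sided, with Benjamini-Hochberg adjustment over 16272 probes, and was tested on simulated data.

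Of 20401 gene probes 19837 had a gene name in the files and 19057 were matched to the RefSeq table of assembly WBcel235, used for names, chromosomes and gene order. The lists, like the members, were chosen with earlier results of these data known. All wrt genes, hog-1 and qua-1 were described in full, with the 5 highest and 5 lowest called genes of grd and grl, and up to 3 genes at each end of a list. The genes grd-3, grd-8, grd-9, grd-11, grl-2, grl-8, grl-18 and the untested ones were named after their values were seen. The labels call the replicates biological but do not say whether they were separate cultures, so p-values measure the spread between these samples. The array number limits the precision. Median signals were 237 to 318 in Cy3 and 370 to 647 in Cy5, against backgrounds of 59 to 64 and 133 to 136.5, and 3.25 to 5.87% of spots carried outlier marks. Alternatives covered the background correction, normalisation, filters, outliers, probes of a gene, single replicates and dyes, and slide.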

Additional observations from a re-analysis of the deposited data

Results flagged for a closer look

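Of 61 values set against Dixon's criterion over the 6 arrays, 4 had 1 array apart from the other 5, and chance alone marks about 1 in 20. With mutant cDNA in Cy5, the log2 ratio of wrt-10 in replicate 2 was 1.64, against 3.94 to 4.25 on the other 5 arrays. There its unmarked spot read 392 in Cy5 and 101 in Cy3, and the spot left out for an outlier mark read 12220 in Cy5 and 434 in Cy3. On the same array the median of the wrt probes was 1.73, against 2.18 to 2.45 on the others. With mutant cDNA in Cy3, wrt-8 had 1.71 in replicate 2, against 1.47 to 1.53. With mutant cDNA in Cy5, grl-9 had 3.03 in replicate 3, against 2.71 to 2.83.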

How the results depend on the processing

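Of 16 alternatives, 14 to 15 tested each member probe. Over those, 37 of the 39 called member probes stayed called and 44 of the 57 tested kept both direction and side of the threshold. No member probe was called lower under any of the 16. The number called higher was between 38 and 50. The member median log2 ratio was 1.46 with no background correction, 1.5 with normexp fitted on all spots, 2.08 with the scanner's processed signals, 2.15 with the deposited ratios and 1.89 over the probes that cleared the background on every array for mutant and wild type, which removes the dim ones. Over all tested probes 2214 were called lower with the processed signals and 2321 with the deposited ratios, beside 2128 and 2197 called higher. Median centring gave 1376 higher and 1508 lower. The ratio of grd-11 turned positive with normexp on all spots (0.0019), median centring (0.0501) and the mutant in Cy3 only (0.0226), and that of grl-8 with median centring (0.107) and the mutant in Cy5 only (0.0551). The cause was not tested. The called probes that fell below 2-fold were grd-5 with median centring (0.99) and grl-1 with no background correction (0.90), normexp on all spots (0.97) and the mutant in Cy5 only (0.93). Leaving out a replicate gave a member median of 1.65 to 1.72, with 39 to 40 called higher. A replicate block on 6 arrays gives the same ratios as averaging both dye orientations, so only the p-values could change. With it the member median was 1.68 and 1480 of all probes were called higher, and the block changed no member's call. With the slide as a block the median was 1.72. Signals near background limit the ratios of the dim probes.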
